A study of Sus scrofa with 12 samples.

Results

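Solute carriers (SLC) are membrane proteins that move amino acids, sugars, metal ions, nucleosides, vitamins and other small molecules across the cell surface and the membranes of organelles. The members described here are all gene symbols of the deposited table that start with SLC and a digit, except SLC6A12 and SLC2A8. The table held 164 of them among 7480 genes, from 39 families. The members described by name had a mean of 6 or more in at least 1 group of libraries, which held for 62, while 102 lay below 6 in all groups, of which 4 are named at single points. Just outside this limit were SLC26A2 with a highest group mean of 5.97 and SLC16A10 with 5.88, and just inside it were SLC39A6 with 6.02 and SLC35B4 with 6.03. One of the 62, SLC2A4RG, encodes a transcription factor that regulates the gene of the glucose transporter GLUT4 and is no carrier itself, so the symbol rule takes in 1 gene by name alone.

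The libraries were labelled as peripheral blood mononuclear cells (PBMC) of crossbred piglets (Duroc x Landrace x Yorkshire), 4 weeks old, with 4 libraries in each of 3 groups. Control libraries were from non-treated samples, Salmonella libraries from samples treated with Salmonella Typhi, and sponge plus Salmonella libraries from samples treated with a miR-124 sponge and Salmonella. A microRNA sponge is built to bind and occupy a microRNA, here miR-124, and the sample titles of the last group name miR-124 without the word sponge. Cells were collected 12 h after treatment, from a design with 20 piglets, 10 male and 10 female, and the labels give neither the animal behind each library nor whether it was sampled more than 1 time. The p-values therefore measure only the spread between these libraries, which may be technical.

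Values are on a log2 scale as deposited (base taken as 2), from 2.13 to 15.01, with library medians between 5.11 and 5.31, and the depth behind them is unknown. Whether they are per transcript length is not given in the sources used here, so levels of different genes are not ranked here. A set of 163 olfactory receptor and keratin-associated protein symbols, which blood cells are not known to express, averaged 4.62 and a 95th percentile of 4.99, and 74 of the 164 carriers stayed below 4.99 in all groups. Exact ties with another gene of the same column made up 73.2% to 80.5% of the carrier values in each sponge plus Salmonella library and 0% in each control or Salmonella library. Over all genes the tied share was 65.1% to 71.4% in sponge plus Salmonella libraries and at most 0.08% in the other libraries. Treatment with the sponge and this column property cannot be told apart. Across the carriers, libraries of 1 group correlated at 0.956 to 0.988.

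In leukocytes, carriers feed activation and defence. Amino acid and glucose carriers at the cell surface supply growth and effector functions, carriers of the SLC11, SLC30, SLC31, SLC39 and SLC40 families move iron, zinc, copper and manganese, which host and bacterium both need, and the SLC25 family links the cytosol with mitochondria. Lymphocytes and monocytes use different sets of carriers, and in bulk libraries fewer cells of a type and less RNA per cell cannot be told apart. The monocyte, T cell and B cell marker lists moved with the groups. The summed level of 8 of 12 listed monocyte markers (log2 of the sum of back-transformed values) ran from 13.80 to 14.02 in control, 14.43 to 14.76 in Salmonella and 13.70 to 14.39 in sponge plus Salmonella libraries. For 12 of 17 T cell markers it ran from 13.87 to 14.34, 12.22 to 12.80 and 13.02 to 13.72 in the same order, and for 5 of 11 B cell markers from 12.10 to 12.93, 9.50 to 10.05 and 11.42 to 11.74. The NK cell, dendritic cell and basophil or eosinophil lists had 5 of 6, 4 of 7 and 5 of 6 measured markers lower with Salmonella and 0 higher. Over all genes 17.9% were lower and 15.7% higher, and these and the following marker counts are to be read beside those shares. Of 7 measured platelet markers 5 were higher and 0 lower, and of 8 neutrophil markers 1 was higher and 2 were lower. Of 8 erythroid markers 3 were higher and 0 lower, with a summed level of 11.28 to 12.09 in control and 12.32 to 13.20 in Salmonella libraries. The lowest value of the table was 2.13, so no marker could be at 0. Some listed markers lay near the silent set, such as the platelet gene PF4 (4.64) and the B cell gene BLNK (4.48) in control libraries. The part of cell composition in the carrier results was not tested. Among the defining markers, the T cell gene CD3D stood at 4.29 ± 0.20 (SD, n = 4) in control libraries, under the mean of the silent set, while CD3E stood at 7.79 ± 0.10.

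With Salmonella alone, against control, the carrier genes with the largest rises were those of an organic cation carrier (SLC22A4), an anion exchanger (SLC26A8) and a copper carrier (SLC31A2), and the largest falls were in mitochondrial carriers of glycine (SLC25A38) and ADP/ATP (SLC25A4) and in the glutamine carrier SLC38A1. Genes of 28 carriers rose and those of 22 fell, while 114 of the 164 were not called (limma, adjusted p below 0.05 over all 7480 genes). Over all genes 33.6% were called, 15.7% higher and 17.9% lower, against 30.5% of the carriers. Counts of classes and lists given here carry no test of their own and are to be read beside these shares. Among the 3387 genes with a mean of 6 or more in at least 1 group 50.5% were called, and 37 of the 62 such carriers were, a count to be read with care because a gene can reach that mean through the group where it is high. The median log2 difference was 0.01 for all 164 carriers and -0.02 for all genes. Rises of 1 log2 unit or more were called for 18 carriers and for 8.02% of all genes, and falls of that size for 8 carriers (4.88%) and for 6.46% of all genes. For 57 carriers (34.8%, against 35.6% of all genes) the 4 Salmonella and 4 control values lay fully apart. Of a list of 74 carriers known from leukocytes, 37 were measured, of which 15 rose, 6 fell and 16 were not called. The split of all rises and falls depends on the scaling: with columns centred on their median it was 23 to 31, and with quantile normalization 25 to 25.

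With the sponge added to Salmonella, against Salmonella alone, 14 carriers were higher, 22 were lower and 128 were not called. The 5 that were higher by 1 log2 unit or more were SLC2A11, SLC39A8, SLC25A20, SLC38A1 and SLC39A6, which carry sugars, zinc, acylcarnitines, glutamine and zinc. The 9 that were lower by as much were SLC31A2, SLC26A8, SLC6A13, SLC9A9, SLC1A3, SLC25A34, SLC27A3, SLC4A1 and SLC30A1. These shares were 3.05% and 5.49% of the carriers, against 4.84% and 4.16% of all genes. The shares called at any size were 22.0% of the carriers and 25.0% of all genes, of which 11.9% were higher and 13.2% lower. The median log2 difference was -0.08 for the carriers and -0.04 for all genes, and the 2 groups did not overlap for 32 carriers (19.5%, against 23.8% of all genes). At a mean of 6 or more 26 of the 62 carriers were called, against 35.1% of all such genes. Of the 37 measured leukocyte carriers 4 were higher and 13 lower. Without Salmonella replicate 4 the count of higher members was 9, and without Salmonella replicate 2 that of lower members was 14.

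Sponge plus Salmonella libraries were also compared with control libraries. These groups differ in both treatments and in the share of tied values, which cannot be told apart. Of the carriers 24 were higher, 26 were lower and 114 were not called, which is 30.5% called against 40.9% of all genes, of which 17.9% were higher and 23.0% lower. The largest differences upward were in SLC22A4 (2.81 ± 0.30), SLC25A20 (2.67 ± 0.40) and SLC40A1 (2.03 ± 0.39), and the largest downward in SLC25A38 (-2.0 ± 0.18), SLC25A4 (-1.73 ± 0.27) and SLC29A3 (-1.62 ± 0.25), each as log2 difference ± SE among the named members. Differences of 1 log2 unit or more were called upward for 13 carriers (7.93%, against 9.02%) and downward for 8 (4.88%, against 5.68%), and 48 carriers (29.3%, against 39.7%) had no overlap. At a mean of 6 or more 29 of the 62 carriers were called, against 53.4% of all such genes. With columns centred on their median the split was 16 higher to 44 lower, and with quantile normalization 21 to 35. Centring moved the median difference of all genes by -0.12 log2 units. Without control replicate 1 the count of higher members was 15. The 3 comparisons share libraries, so the values of a gene in them are given side by side and not counted as separate evidence.

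**Figure D1:**
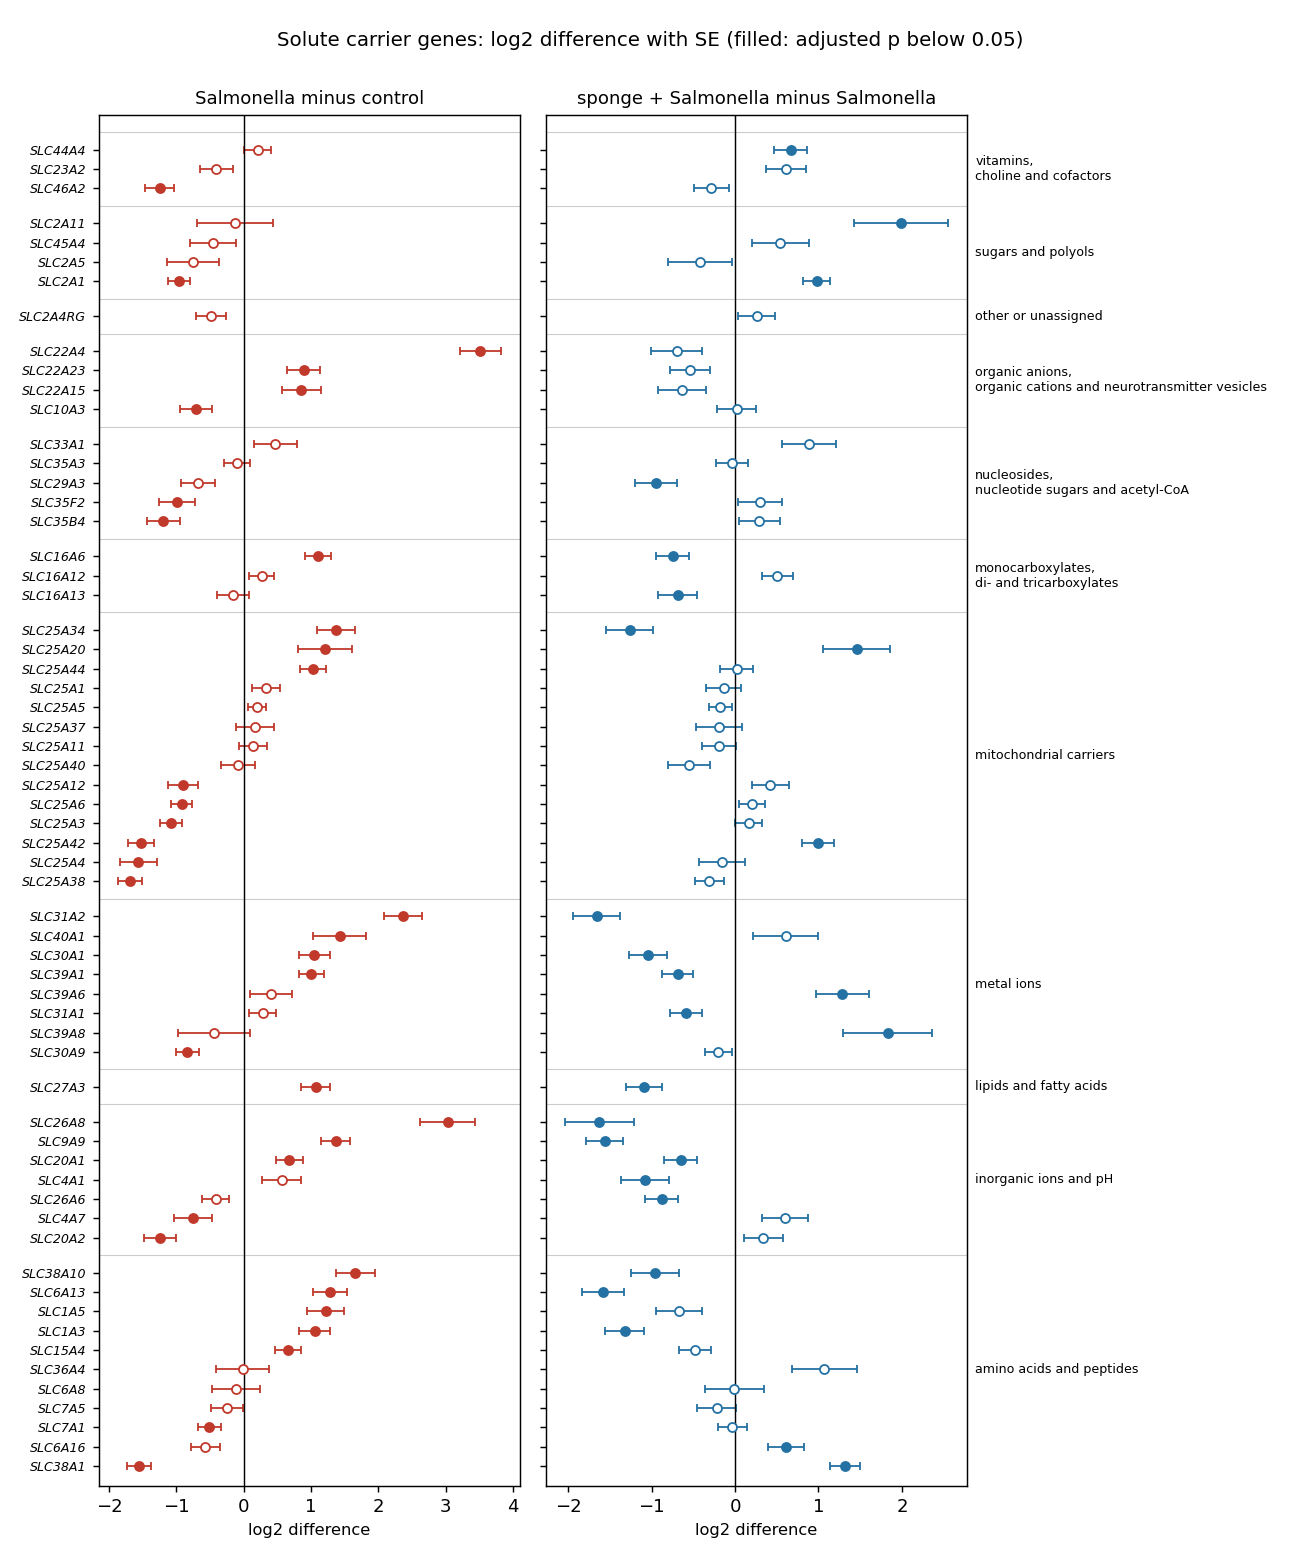
Log2 differences (points, horizontal axis) with standard errors (bars) for 61 of the 62 carrier genes with a mean of 6 or more in at least 1 group, ordered by transport class, for Salmonella minus control (left) and sponge plus Salmonella minus Salmonella (right), 4 libraries per group. Filled points passed an adjusted p of 0.05, and SLC22A4 lies farthest to the right on the left side at 3.51. The axes of the 2 panels differ.

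The largest rise was in an organic cation carrier gene. SLC22A4 (chromosome 2, 134594843 to 134641403, Sscrofa11.1) encodes OCTN1, a carrier of ergothioneine and other organic cations, and its values were 4.52, 5.07, 5.53 and 5.68 in control, 8.09, 9.14, 8.96 and 8.66 in Salmonella, and 7.61, 8.60, 8.16 and 7.68 in sponge plus Salmonella libraries. No Salmonella or sponge plus Salmonella library overlapped the control libraries. The rise with Salmonella was 3.51 ± 0.30 log2 units (SE, n = 4 per group, adjusted p = 1.8e-06), and against control the sponge plus Salmonella libraries were higher by 2.81 ± 0.30 (adjusted p = 6.2e-05). Between the 2 treated groups SLC22A4 was not called (adjusted p = 0.102), although it was called without Salmonella replicate 1 (adjusted p = 0.0375). The next largest rise was in the inorganic ion class. SLC26A8 (chromosome 7, 31722409 to 31791620), an anion exchanger gene best known from sperm, had values of 4.85, 5.91, 4.97 and 6.50 in control, 7.44, 8.99, 9.23 and 8.67 in Salmonella, and 6.70, 7.63, 6.84 and 6.65 in sponge plus Salmonella libraries. It rose by 3.03 ± 0.41 (adjusted p = 7.9e-05), and it was lower with the sponge than with Salmonella alone (-1.63 ± 0.41, adjusted p = 0.0114), where Salmonella replicate 1 at 7.44 overlapped the highest sponge plus Salmonella value of 7.63. Against control it was higher with the sponge plus Salmonella (1.40 ± 0.41, adjusted p = 0.0148), a call that ended without sponge plus Salmonella replicate 2 or without control replicate 1 (adjusted p 0.0509 to 0.0516). Other organic ion carriers moved less than SLC22A4. SLC22A23, an orphan carrier gene, rose by 0.89 ± 0.24 (adjusted p = 0.0105). SLC22A15 rose by 0.85 ± 0.29 (adjusted p = 0.0342), a call that ended with median centring, with only the 2 groups in the fit, without Salmonella replicates 2, 3 or 4 or without control replicates 1, 2 or 3 (adjusted p 0.0545 to 0.104). SLC10A3, a bile acid carrier relative without a settled substrate, fell by 0.71 on the log2 scale (adjusted p = 0.0299), which ended with replicate number as a block, without Salmonella replicates 1, 2 or 3 or without control replicates 1 or 2 (adjusted p 0.0501 to 0.101). Its lower level with sponge plus Salmonella against control (-0.69 ± 0.23, adjusted p = 0.0292) ended with replicate number as a block, without sponge plus Salmonella replicates 2 or 4 or without control replicates 1 or 2 (adjusted p 0.0540 to 0.0978). Of 20 members in this class, 4 rose, 2 fell and 14 were not called, against 15.7% higher and 17.9% lower over all genes.

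**Figure D2:**
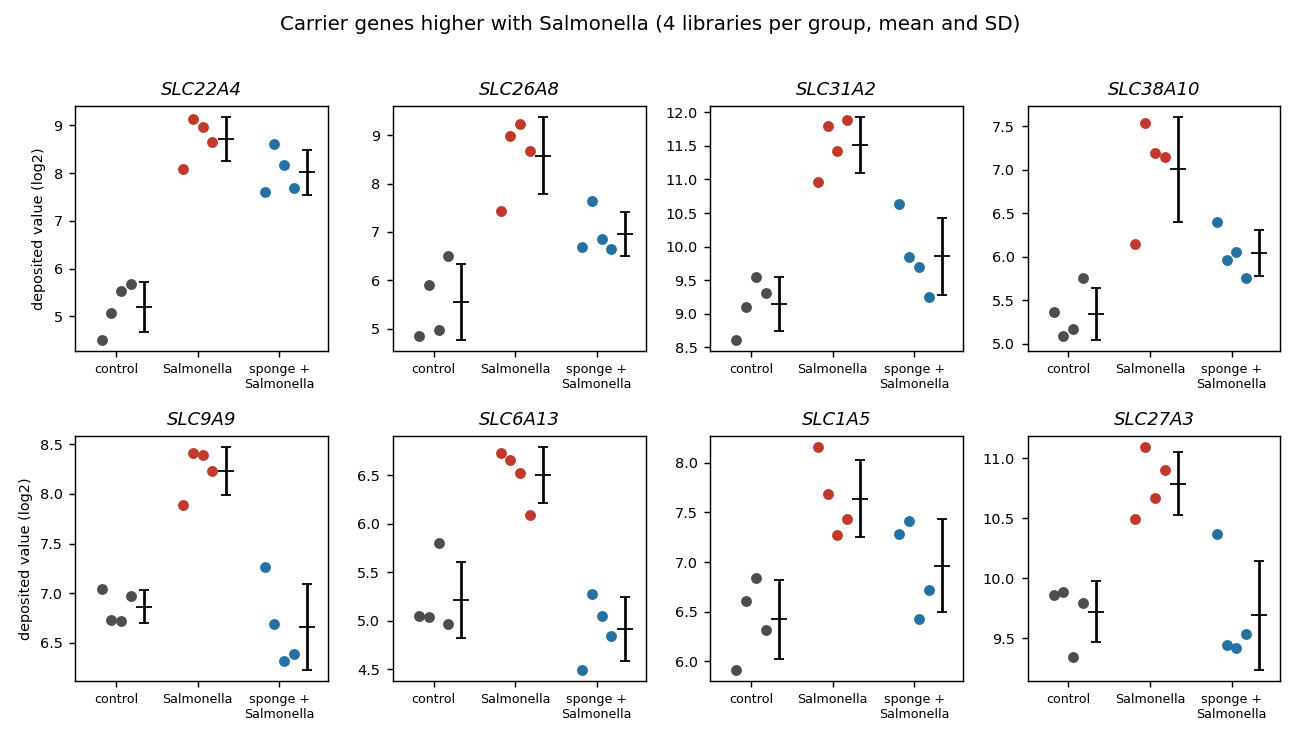
Deposited log2 values (vertical axis, a separate range for each gene) of 8 carrier genes that rose with Salmonella, 1 point per library in control, Salmonella and sponge plus Salmonella groups, with mean and SD (n = 4) in black. In SLC22A4 the control libraries lie between 4.52 and 5.68 and all Salmonella libraries above 8.

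Metal ion carriers showed rises in copper, zinc and iron genes. Of 13 members, 4 rose, 1 fell and 8 were not called, and with the sponge 4 were higher and 4 lower than with Salmonella alone. Over all genes 15.7% rose and 17.9% fell with Salmonella, and with the sponge 11.9% were higher and 13.2% lower. SLC31A2 (chromosome 1, 253795005 to 253805287) encodes CTR2, a copper carrier of endosomes and lysosomes, and stood at 8.62, 9.10, 9.55 and 9.30 in control, 10.96, 11.79, 11.42 and 11.88 in Salmonella, and 10.63, 9.84, 9.70 and 9.25 in sponge plus Salmonella libraries. All Salmonella values lay above all others. It rose by 2.37 ± 0.28 (adjusted p = 2.4e-05), and it was lower with the sponge than with Salmonella alone (-1.66 ± 0.28, adjusted p = 0.00110). Its chromosomal neighbour SLC31A1, which encodes the copper importer CTR1 at the cell surface, lies 63101 bases away on chromosome 1, and its values were 7.36, 7.58, 7.43 and 7.62 in control, 7.69, 7.87, 7.55 and 8.0 in Salmonella, and 7.67, 7.24, 6.98 and 6.88 in sponge plus Salmonella libraries. The control and Salmonella values of SLC31A1 overlapped (adjusted p = 0.293). 

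Zinc carriers moved in opposite directions. SLC30A1 encodes ZnT1, which exports zinc from the cell and is a known target of the zinc-sensing transcription factor MTF1, and its values were 6.09, 5.86, 5.93 and 5.87 in control, 7.24, 6.76, 6.54 and 7.40 in Salmonella, and 6.22, 5.88, 5.79 and 5.87 in sponge plus Salmonella libraries. It rose by 1.05 ± 0.23 (adjusted p = 0.00254), and with the sponge it was lower than with Salmonella alone (-1.04 ± 0.23, adjusted p = 0.00486), with no overlap in either comparison. SLC30A9, a zinc carrier linked to mitochondria, had values of 9.22, 8.97, 9.32 and 8.91 in control, 8.39, 8.20, 8.07 and 8.43 in Salmonella, and 8.25, 8.28, 7.90 and 7.85 in sponge plus Salmonella libraries. Every control library lay above every treated one, with a fall of 0.84 on the log2 scale with Salmonella (adjusted p = 0.00149) and of 1.04 with sponge plus Salmonella against control (adjusted p = 0.000359). SLC39A1, the gene of the zinc importer ZIP1, rose by 1.0 ± 0.19 (adjusted p = 0.000894), from between 8.08 and 8.60 in control to between 9.05 and 9.53 in Salmonella libraries. It was lower with the sponge than with Salmonella alone (-0.69 ± 0.19, adjusted p = 0.0155), at 8.20 to 8.96. Of 7 measured genes among 15 listed for zinc and copper handling, 5 rose and 1 fell with Salmonella, against 15.7% and 17.9% of all genes. The listed genes that rose included the metallothioneins MT2A (3.14 ± 0.40, adjusted p = 4.6e-05) and MT1A (2.75 ± 0.33, adjusted p = 2.8e-05), which bind zinc and copper, and MTF1 (1.51 ± 0.19, adjusted p = 4.6e-05), and with the sponge these 3 were lower than with Salmonella alone, with log2 differences of -2.60 ± 0.40, -2.04 ± 0.33 and -1.23 ± 0.19. The others that rose were the copper chaperone gene SCO1 (0.70 ± 0.20, adjusted p = 0.0163) and S100A12 (3.37 ± 0.52, adjusted p = 0.000216), which neutrophils and monocytes express, and the 1 that fell was the superoxide dismutase gene SOD1 (-0.45 ± 0.14, adjusted p = 0.0265).

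Other metal carriers were higher in sponge plus Salmonella than in control libraries. SLC40A1 encodes ferroportin, the only known iron exporter of mammalian cells, and its values were 4.11, 4.37, 5.34 and 4.16 in control, 7.0, 4.87, 5.95 and 5.86 in Salmonella, and 6.06, 6.87, 6.61 and 6.58 in sponge plus Salmonella libraries. Its rise with Salmonella was 1.42 ± 0.39 (adjusted p = 0.0116), with Salmonella replicate 2 at 4.87 inside the control range, and sponge plus Salmonella libraries were higher than control by 2.03 ± 0.39 (adjusted p = 0.00112) without overlap. Between sponge plus Salmonella and Salmonella alone SLC40A1 was not called (0.61 ± 0.39, adjusted p = 0.263). Salmonella replicate 1 at 7.0 lay above all sponge plus Salmonella values. SLC39A6, the zinc importer gene ZIP6, was at 4.13, 4.63, 4.43 and 4.13 in control, 5.78, 4.54, 4.68 and 3.93 in Salmonella, and 6.41, 6.34, 5.75 and 5.58 in sponge plus Salmonella libraries. It was not called with Salmonella, and sponge plus Salmonella libraries were higher than Salmonella (1.29 ± 0.32, adjusted p = 0.00948) and control libraries (1.69 ± 0.32, adjusted p = 0.000916), with Salmonella replicate 1 at 5.78 inside the sponge plus Salmonella range. SLC39A8, the gene of the zinc and manganese importer ZIP8, spread widely, at 4.28, 4.69, 6.20 and 4.03 in control, 5.49, 4.94, 3.47 and 3.52 in Salmonella, and 6.73, 5.02, 6.27 and 6.72 in sponge plus Salmonella libraries. It was higher with the sponge than with Salmonella alone (1.83 ± 0.53, adjusted p = 0.0224), a call that ended without sponge plus Salmonella replicates 1, 3 or 4 or without Salmonella replicates 3 or 4 (adjusted p 0.0503 to 0.0727). Against control its call (1.39 ± 0.53, adjusted p = 0.0493) ended with median centring, with quantile normalization, without the variance trend, with replicate number as a block, without sponge plus Salmonella replicates 1, 3 or 4 or without control replicates 1, 2 or 4 (adjusted p 0.0501 to 0.137). The control means of SLC40A1 (4.50), SLC39A6 (4.33) and SLC39A8 (4.80) lie below 4.99, so the sizes of these differences are uncertain. SLC31A1 was lower with the sponge than with Salmonella alone (-0.59 ± 0.19, adjusted p = 0.0393), which ended with only the 2 groups in the fit, with replicate number as a block, without sponge plus Salmonella replicates 2, 3 or 4 or without Salmonella replicates 2 or 4 (adjusted p 0.0604 to 0.109). Of 14 measured genes among 23 listed for iron handling, 5 rose with Salmonella and 0 fell, against 15.7% higher and 17.9% lower over all genes. Those that rose included the metalloreductase gene STEAP4 (1.56 ± 0.34, adjusted p = 0.00302), the haemoglobin scavenger receptor gene CD163 (1.08 ± 0.30, adjusted p = 0.0120), also a monocyte marker, and the haem synthesis gene ALAD (0.90 ± 0.24, adjusted p = 0.00848). The control means of CD163 (4.77 ± 0.37, SD) and ALAD (4.32 ± 0.21, SD) lie below 4.99, so these sizes are uncertain too.

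**Figure D3:**
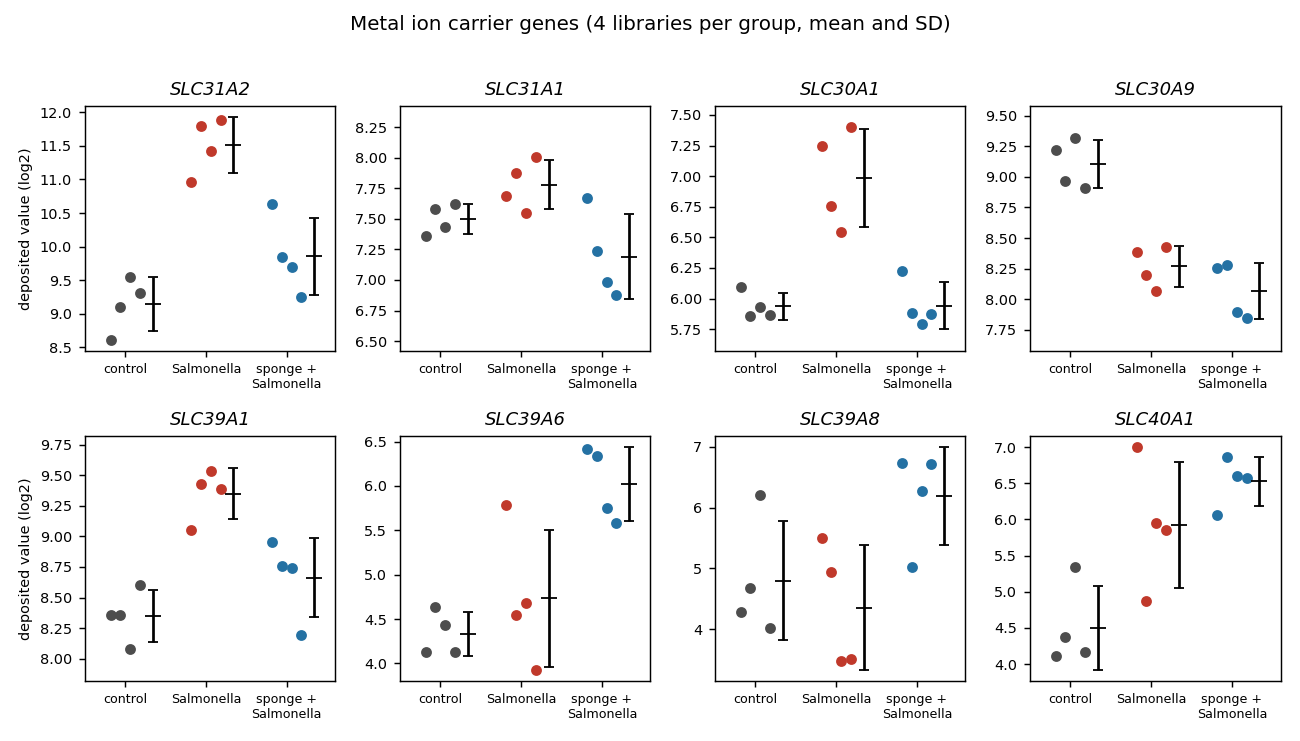
Deposited log2 values (vertical axis, a separate range for each gene) of 8 metal ion carrier genes, 1 point per library in 3 groups, with mean and SD (n = 4) in black. Salmonella libraries are highest for SLC31A2 (10.96 to 11.88), SLC30A1 and SLC39A1, and sponge plus Salmonella libraries have the highest means for SLC39A6, SLC39A8 and SLC40A1.

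Among 37 carriers of amino acids and peptides, 5 rose, 3 fell and 29 were not called, and with the sponge 2 were higher and 4 lower than with Salmonella alone. The shares over all genes were 15.7% higher and 17.9% lower with Salmonella, and 11.9% higher and 13.2% lower with the sponge. SLC38A1 (chromosome 5, 77009840 to 77076723) encodes SNAT1, a sodium-coupled glutamine carrier of lymphocytes and other cells, and had values of 9.82, 10.10, 10.36 and 10.03 in control, 8.65, 8.31, 8.74 and 8.37 in Salmonella, and 9.67, 9.60, 9.85 and 10.23 in sponge plus Salmonella libraries. Salmonella libraries lay apart below both other groups. It fell by 1.56 on the log2 scale (adjusted p = 1.6e-05) and was higher with the sponge than with Salmonella alone (1.32 ± 0.18, adjusted p = 0.000293), while sponge plus Salmonella and control libraries overlapped (adjusted p = 0.287). Of the 12 measured T cell markers 11 fell with Salmonella and 10 were higher with the sponge than with Salmonella alone, and their part in the level of SLC38A1 was not tested. SLC1A5, the gene of the glutamine carrier ASCT2, had values of 5.92, 6.61, 6.84 and 6.32 in control, 8.16, 7.69, 7.27 and 7.43 in Salmonella, and 7.28, 7.42, 6.43 and 6.72 in sponge plus Salmonella libraries. It rose by 1.21 ± 0.28 (adjusted p = 0.00363), so the genes of these 2 glutamine carriers moved in opposite directions. SLC1A3, which encodes the glutamate carrier EAAT1, was at 5.60, 5.22, 4.84 and 5.06 in control, 5.92, 6.21, 6.63 and 6.15 in Salmonella, and 4.98, 5.21, 4.53 and 4.90 in sponge plus Salmonella libraries. It rose by 1.05 ± 0.24 (adjusted p = 0.00327) and was lower with the sponge than with Salmonella alone (-1.32 ± 0.24, adjusted p = 0.00151), with a sponge plus Salmonella mean of 4.90 that lies below 4.99.

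SLC38A10, a less studied relative of the SNAT carriers, had values of 5.37, 5.09, 5.17 and 5.76 in control, 6.14, 7.54, 7.19 and 7.15 in Salmonella, and 6.40, 5.97, 6.05 and 5.75 in sponge plus Salmonella libraries. It rose by 1.66 ± 0.29 (adjusted p = 0.000568), and its lower level with the sponge (-0.96 ± 0.29, adjusted p = 0.0259) was no longer called without sponge plus Salmonella replicates 2, 3 or 4 or without Salmonella replicates 2, 3 or 4 (adjusted p 0.0514 to 0.0856). SLC6A13 (chromosome 5, 67574149 to 67617513), the gene of the GABA and taurine carrier GAT2, had values of 5.05, 5.04, 5.80 and 4.97 in control, 6.73, 6.66, 6.52 and 6.09 in Salmonella, and 4.50, 5.28, 5.05 and 4.84 in sponge plus Salmonella libraries. Salmonella libraries stood above all others, with a rise of 1.29 ± 0.25 (adjusted p = 0.00142) and a lower level with the sponge (-1.58 ± 0.25, adjusted p = 0.000800), where the mean of 4.92 lies below 4.99 and makes the size uncertain. SLC15A4 encodes a lysosomal carrier of histidine and small peptides that endosomal Toll-like receptor signalling requires, and its values were 9.31, 9.25, 8.83 and 9.63 in control, 9.62, 9.81, 10.02 and 10.22 in Salmonella, and 9.31, 9.58, 9.71 and 9.13 in sponge plus Salmonella libraries. The rise of SLC15A4 (0.66 ± 0.19, adjusted p = 0.0168) was smaller, the groups overlapped, and the call ended without Salmonella replicate 4 or without control replicate 3 (adjusted p 0.0510 to 0.0522). SLC7A1, the gene of the arginine carrier CAT1, fell from between 8.36 and 8.74 to between 7.80 and 8.32 (-0.51 ± 0.17, adjusted p = 0.0306). This call ended with replicate number as a block, without Salmonella replicates 1, 2 or 4 or without control replicates 1, 2 or 4 (adjusted p 0.0515 to 0.0972). With sponge plus Salmonella SLC7A1 was also lower than in control (-0.55 ± 0.17, adjusted p = 0.0195), which ended without sponge plus Salmonella replicate 2 or without control replicate 1 (adjusted p 0.0573 to 0.0652). SLC7A5, the gene of the large neutral amino acid carrier LAT1, was not called in any comparison, with control values of 8.16, 8.45, 7.80 and 8.15 and Salmonella values of 7.70, 7.66, 8.36 and 7.85, although 1 alternative called it lower with sponge plus Salmonella than in control (adjusted p = 0.0475). The creatine carrier gene SLC6A8 was not called in any comparison either, at 5.84 to 7.19 in control and 5.67 to 6.73 in Salmonella libraries.

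SLC36A4, a proton-coupled amino acid carrier gene, ran from 4.60 to 6.22 in control, 4.74 to 6.21 in Salmonella and 5.85 to 7.26 in sponge plus Salmonella libraries. It was called against control with the sponge (1.06 ± 0.39, adjusted p = 0.0425), which ended with median centring, with quantile normalization, without the variance trend, with replicate number as a block, without sponge plus Salmonella replicates 1, 2 or 4 or without control replicates 1, 2 or 4 (adjusted p 0.0510 to 0.137). SLC6A16, an orphan relative of the neurotransmitter carriers and the 1 member without an entry in the pig RefSeq gene table, was at 6.25, 6.17, 6.25 and 6.04 in control, 5.65, 5.50, 5.73 and 5.55 in Salmonella, and 5.76, 6.25, 6.29 and 6.59 in sponge plus Salmonella libraries. It was higher with the sponge than with Salmonella alone (0.61 ± 0.22, adjusted p = 0.0499), which ended with median centring, with quantile normalization, with only the 2 groups in the fit, with replicate number as a block, without sponge plus Salmonella replicates 2, 3 or 4 or without Salmonella replicates 1, 2, 3 or 4 (adjusted p 0.0518 to 0.142). With Salmonella alone it lay below control without overlap but was not called (adjusted p = 0.0541), and 5 alternatives called it lower (adjusted p 0.0131 to 0.0327). Of 11 measured genes among 32 listed as carrier partners and amino acid sensors, 2 rose, 1 fell and 8 were not called with Salmonella. Over all genes 15.7% rose and 17.9% fell. The listed genes that were called were the lysosomal amino acid signalling gene RRAGD (1.07 ± 0.27, adjusted p = 0.00627) and the arrestin gene ARRDC3 (1.46 ± 0.32, adjusted p = 0.00265), which rose, and the leucine sensor relative SESN1 (-2.20 ± 0.27, adjusted p = 2.8e-05), which fell.

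Among 22 mitochondrial carriers of the SLC25 family, 7 fell, 4 rose and 11 were not called, against 17.9% lower and 15.7% higher over all genes. With the sponge 2 were higher and 1 was lower than with Salmonella alone, against 11.9% higher and 13.2% lower over all genes. SLC25A38 (chromosome 13, 24030571 to 24043866) encodes the glycine carrier that haem synthesis needs, and its values were 9.04, 8.55, 8.78 and 8.82 in control, 6.90, 7.28, 7.06 and 7.18 in Salmonella, and 6.81, 6.56, 6.75 and 7.07 in sponge plus Salmonella libraries. All control libraries lay above all treated ones. It fell by 1.69 on the log2 scale (adjusted p = 8.1e-06), and sponge plus Salmonella libraries were lower than control (-2.0 ± 0.18, adjusted p = 2.0e-05). The 2 treated groups were not called as different (adjusted p = 0.206). SLC25A42, the gene of a mitochondrial coenzyme A carrier, was at 9.70, 9.37, 9.43 and 9.43 in control, 7.58, 8.46, 7.98 and 7.85 in Salmonella, and 8.73, 8.75, 9.15 and 9.19 in sponge plus Salmonella libraries. It fell by 1.52 on the log2 scale (adjusted p = 4.1e-05) and stood between the other groups with the sponge, higher than with Salmonella alone (0.99 ± 0.19, adjusted p = 0.00256). It was lower than control with the sponge (-0.53 ± 0.19, adjusted p = 0.0384), a call that ended with quantile normalization, with replicate number as a block, without sponge plus Salmonella replicates 1 or 2 or without control replicates 1, 2, 3 or 4 (adjusted p 0.0548 to 0.107).

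The ADP/ATP carriers, which exchange the 2 nucleotides across the inner mitochondrial membrane, were not all called with Salmonella. SLC25A4 (ANT1) was at 6.75, 6.92, 7.50 and 7.37 in control, 5.43, 5.29, 5.36 and 6.18 in Salmonella, and 5.68, 4.98, 5.26 and 5.70 in sponge plus Salmonella libraries. SLC25A6 (ANT3) was at 11.74, 11.55, 11.80 and 11.37 in control, 10.85, 10.55, 10.90 and 10.49 in Salmonella, and 10.88, 10.68, 11.11 and 10.91 in sponge plus Salmonella libraries. SLC25A5 (ANT2) was at 12.47, 12.41, 12.63 and 12.35 in control, 12.88, 12.73, 12.52 and 12.52 in Salmonella, and 12.75, 12.40, 12.40 and 12.38 in sponge plus Salmonella libraries. In SLC25A4 and SLC25A6 every control library lay above every treated one, and in SLC25A5 the groups overlapped. The first 2 genes fell, by 1.57 (adjusted p = 0.000557) and 0.92 (adjusted p = 0.000366) on the log2 scale, and SLC25A5 was not called (adjusted p = 0.300). These genes have near copies in mammalian genomes, so how reads were shared between them is uncertain. In sponge plus Salmonella libraries SLC25A4 and SLC25A6 were also lower than in control (-1.73 ± 0.27, adjusted p = 0.000317, and -0.72 ± 0.15, adjusted p = 0.00203).

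Further mitochondrial carriers moved in both directions. SLC25A3, the phosphate carrier gene, was at 12.46 to 13.11 in control, 11.45 to 11.86 in Salmonella and 11.64 to 12.09 in sponge plus Salmonella libraries, and fell by 1.08 on the log2 scale with Salmonella (adjusted p = 0.000220). SLC25A12, which encodes an aspartate and glutamate carrier, fell by 0.91 (adjusted p = 0.00638), from 6.09 to 6.53 in control to 5.14 to 5.82 in Salmonella libraries. SLC25A44, the gene of a branched-chain amino acid carrier, rose by 1.03 ± 0.20 (adjusted p = 0.00116), from 7.93 to 8.50 in control to 9.07 to 9.64 in Salmonella libraries, and stayed at 8.94 to 9.72 with the sponge. These 3 changes came without overlap of the groups. SLC25A34, a carrier gene without a settled substrate, rose by 1.37 ± 0.28 (adjusted p = 0.00180) and was lower with the sponge (-1.26 ± 0.28, adjusted p = 0.00541), but its control (4.73) and sponge plus Salmonella means (4.83) lie below 4.99, so both sizes are uncertain. SLC25A20 encodes the carnitine and acylcarnitine carrier of fatty acid oxidation and had values of 4.09, 4.66, 5.42 and 4.27 in control, 6.89, 6.04, 4.87 and 5.46 in Salmonella, and 6.64, 7.35, 7.60 and 7.50 in sponge plus Salmonella libraries. The order of the group means was control, Salmonella, sponge plus Salmonella, with a difference of 2.67 ± 0.40 (adjusted p = 0.000237) between the first and the last. Its rise with Salmonella (1.21 ± 0.40, adjusted p = 0.0307) ended with only the 2 groups in the fit, with replicate number as a block, without Salmonella replicates 1 or 2 or without control replicates 1, 2 or 4 (adjusted p 0.0550 to 0.0918). Its further difference with the sponge (1.46 ± 0.40, adjusted p = 0.0168) ended without Salmonella replicate 3 (adjusted p = 0.0555), and with a control mean of 4.61 the sizes against control are uncertain. SLC25A37 (mitoferrin, which brings iron into mitochondria), SLC25A1 (citrate), SLC25A11 (oxoglutarate) and SLC25A40 (glutathione) were not called in any comparison. SLC25A40 was near the threshold with sponge plus Salmonella against control (adjusted p = 0.0567), and 6 alternatives called it lower there (adjusted p 0.0137 to 0.0449).

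**Figure D4:**
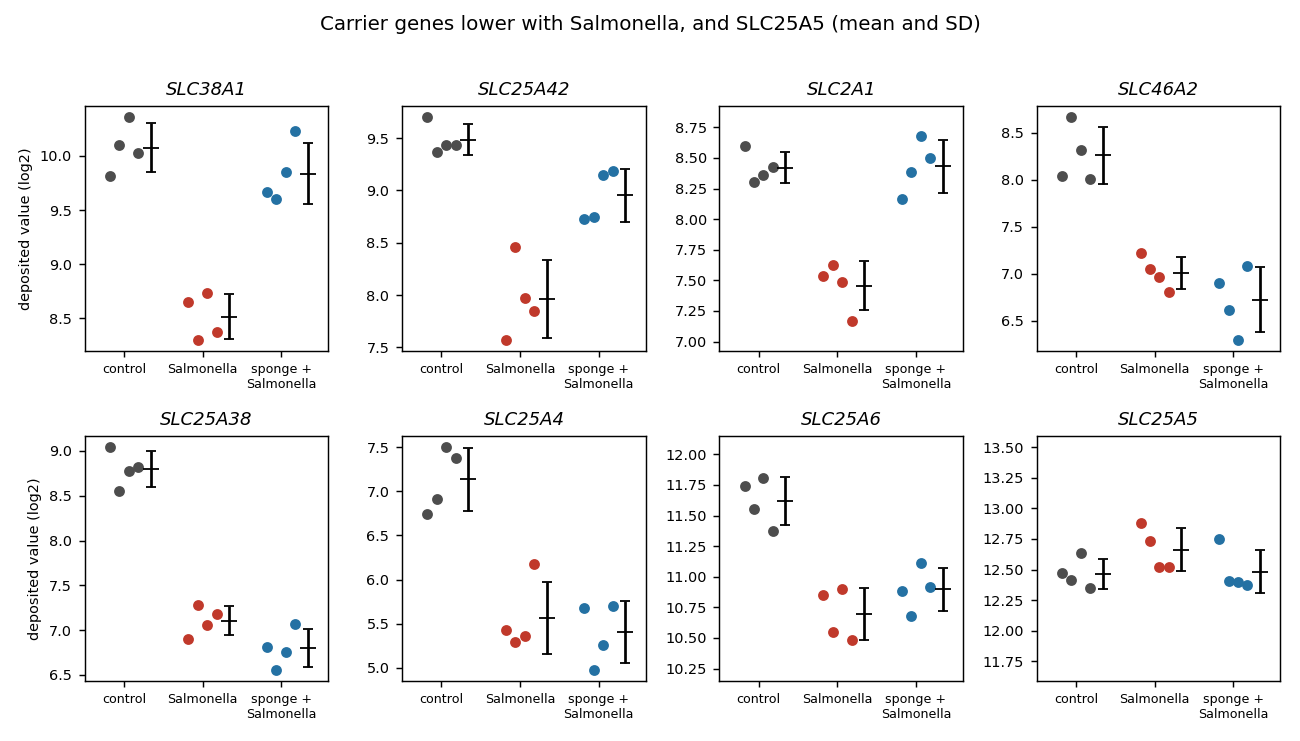
Deposited log2 values (vertical axis, a separate range for each gene) of 7 carrier genes that fell with Salmonella and of SLC25A5, which was not called, 1 point per library in 3 groups, with mean and SD (n = 4) in black. SLC38A1, SLC25A42 and SLC2A1 are higher in sponge plus Salmonella than in Salmonella libraries, and SLC46A2 and SLC25A38 are not.

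Among 16 sugar carriers 1 rose, 1 fell and 14 were not called, against 15.7% higher and 17.9% lower over all genes. The 1 that fell was SLC2A1 (chromosome 6, 168535398 to 168561170), which encodes GLUT1, the widespread glucose importer, with values of 8.60, 8.30, 8.36 and 8.42 in control, 7.53, 7.63, 7.49 and 7.17 in Salmonella, and 8.16, 8.39, 8.68 and 8.50 in sponge plus Salmonella libraries. Salmonella libraries lay below all others, with a fall of 0.97 on the log2 scale (adjusted p = 0.000488) and a higher level with the sponge than with Salmonella alone (0.98 ± 0.17, adjusted p = 0.00110). The 1 that rose, SLC45A2, lay below 6 in all groups and was named after its values were seen. SLC2A11, the gene of a fructose and glucose carrier, was at 4.30, 5.56, 6.16 and 5.07 in control, 5.52, 5.49, 5.49 and 4.06 in Salmonella, and 5.29, 8.19, 7.85 and 7.17 in sponge plus Salmonella libraries. Sponge plus Salmonella replicates 2, 3 and 4 stood above all other libraries, and replicate 1 did not. It was called with the sponge against Salmonella (1.99 ± 0.56, adjusted p = 0.0196), which ended without sponge plus Salmonella replicates 2 or 3 or without Salmonella replicate 4 (adjusted p 0.0600 to 0.0639). Against control its call (1.85 ± 0.56, adjusted p = 0.0170) ended without sponge plus Salmonella replicates 2 or 3 or without control replicate 1 (adjusted p 0.0542 to 0.0599). SLC2A5, the fructose carrier gene, was lower in sponge plus Salmonella libraries (5.13 to 5.82) than in control libraries (6.46 to 7.33, a difference of -1.18 ± 0.38, adjusted p = 0.0233), which ended without sponge plus Salmonella replicate 3 or without control replicate 1 (adjusted p 0.0664 to 0.0761). In Salmonella libraries it ran from 5.06 to 7.28. Without Salmonella replicate 4, the library at 7.28, it was called lower than in control (-1.20, adjusted p = 0.00670). SLC45A4 was not called in any comparison, nor was SLC2A4RG, which 2 alternatives called lower with Salmonella (adjusted p 0.0473 to 0.0498).

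Of 23 carriers of inorganic ions and protons, 7 rose, 4 fell and 12 were not called, and with the sponge 5 were lower and 0 higher than with Salmonella alone. Over all genes 15.7% rose and 17.9% fell with Salmonella, and with the sponge 13.2% were lower and 11.9% higher. SLC9A9 encodes NHE9, a sodium and proton exchanger of endosomes, and stood at 7.04, 6.73, 6.72 and 6.97 in control, 7.89, 8.41, 8.39 and 8.23 in Salmonella, and 7.27, 6.69, 6.31 and 6.39 in sponge plus Salmonella libraries. Salmonella libraries lay above all others. It rose by 1.36 ± 0.22 (adjusted p = 0.000325) and was lower with the sponge (-1.56 ± 0.22, adjusted p = 0.000385). The 2 sodium-coupled phosphate importers moved in opposite directions: SLC20A1 (PiT1) rose by 0.68 ± 0.20 (adjusted p = 0.0164), and SLC20A2 (PiT2) fell by 1.24 on the log2 scale (adjusted p = 0.00107). SLC20A2 ran from 6.68 to 6.93 in control and 5.44 to 5.75 in Salmonella libraries. SLC20A1 ran from 9.19 to 10.01 and from 9.94 to 10.69, with overlap. The call of SLC20A1 with Salmonella ended without Salmonella replicate 2 or without control replicate 3 (adjusted p 0.0508 to 0.0575). It was lower with the sponge than with Salmonella alone (-0.65 ± 0.20, adjusted p = 0.0275), which ended without sponge plus Salmonella replicates 3 or 4 or without Salmonella replicates 2 or 4 (adjusted p 0.0607 to 0.0886).

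SLC4A1 encodes band 3, the anion exchanger of red cells, and marks erythroid cells. Its values were 8.91, 9.35, 9.39 and 8.92 in control, 9.70, 9.32, 9.96 and 9.83 in Salmonella, and 7.59, 9.06, 8.66 and 9.21 in sponge plus Salmonella libraries. It was not called with Salmonella and was lower with the sponge (-1.08 ± 0.29, adjusted p = 0.0148). Of the 8 measured among 16 listed erythroid markers, 2 were lower with the sponge than with Salmonella alone and 0 were higher, against 13.2% and 11.9% of all genes. The summed level of the 8 markers ran from 12.32 to 13.20 with Salmonella and from 10.45 to 12.30 with the sponge. The part of erythroid RNA in this difference was not tested. SLC26A6, an anion exchanger gene, was at 8.64, 8.63, 8.05 and 8.56 in control, 7.71, 8.22, 8.04 and 8.23 in Salmonella, and 7.36, 6.77, 7.29 and 7.26 in sponge plus Salmonella libraries. It was lower with the sponge than with Salmonella alone (-0.88 ± 0.20, adjusted p = 0.00586) and than in control (-1.30 ± 0.20, adjusted p = 0.000260), without overlap. SLC4A7, a sodium and bicarbonate cotransporter gene, fell by 0.76 on the log2 scale with Salmonella (adjusted p = 0.0498), with overlapping groups, and this call ended with quantile normalization, without the variance trend, with only the 2 groups in the fit, with replicate number as a block, without Salmonella replicates 2, 3 or 4 or without control replicates 1, 2 or 3 (adjusted p 0.0501 to 0.148).

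The remaining classes held fewer named members. SLC27A3 encodes a fatty acid transport protein with acyl-CoA synthetase activity and stood at 9.86, 9.89, 9.34 and 9.80 in control, 10.49, 11.09, 10.67 and 10.90 in Salmonella, and 10.37, 9.45, 9.42 and 9.54 in sponge plus Salmonella libraries. It rose by 1.07 ± 0.22 (adjusted p = 0.00166) and was lower with the sponge (-1.10 ± 0.22, adjusted p = 0.00279). SLC16A6 (MCT7), a carrier of ketone bodies, rose by 1.10 ± 0.19 (adjusted p = 0.000568), from 6.22 to 6.58 in control to 7.15 to 7.66 in Salmonella libraries, and was lower with the sponge at 6.42 to 6.90 (-0.75 ± 0.19, adjusted p = 0.0118). Among 11 carriers of mono-, di- and tricarboxylates it was 1 of 2 that rose, the other being SLC16A14, which lay below 6 and was named after its values were seen. Over all genes 15.7% rose with Salmonella. SLC16A13 was lower with the sponge, at 5.10 to 5.67, than with Salmonella alone, at 5.93 to 6.09 (-0.69 ± 0.24, adjusted p = 0.0451), which ended with replicate number as a block, without sponge plus Salmonella replicates 1, 3 or 4 or without Salmonella replicates 1, 2, 3 or 4 (adjusted p 0.0551 to 0.0997). Against control the difference was -0.85 ± 0.24 (adjusted p = 0.0110).

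Of 13 carriers of nucleosides, nucleotide sugars and acetyl-CoA, 0 rose and 2 fell with Salmonella, against 15.7% and 17.9% of all genes. The 2 carriers that fell were SLC35B4, a Golgi nucleotide sugar carrier gene, at 5.45 to 6.41 in control and 4.62 to 5.11 in Salmonella libraries (-1.19 ± 0.25, adjusted p = 0.00193), and SLC35F2, at 6.23 to 7.12 and 5.23 to 6.08 (-0.99 ± 0.26, adjusted p = 0.00961). The Salmonella mean of SLC35B4 (4.84) lies below 4.99, so its size is uncertain. Both were lower with sponge plus Salmonella than in control (-0.90 ± 0.25, adjusted p = 0.00985, and -0.70 ± 0.26, adjusted p = 0.0468), and the call of SLC35F2 ended without sponge plus Salmonella replicates 1, 2, 3 or 4 or without control replicates 2, 3 or 4 (adjusted p 0.0527 to 0.146). SLC29A3 encodes ENT3, a nucleoside carrier of lysosomes, and had values of 7.49, 7.08, 6.93 and 6.98 in control, 6.42, 6.33, 6.07 and 6.95 in Salmonella, and 5.86, 5.39, 5.01 and 5.73 in sponge plus Salmonella libraries. Sponge plus Salmonella libraries lay below both other groups, with differences of -0.95 ± 0.25 against Salmonella (adjusted p = 0.0150) and -1.62 ± 0.25 against control (adjusted p = 0.000295). The first of these calls ended without Salmonella replicate 4 (adjusted p = 0.05003). With Salmonella SLC29A3 was not called (adjusted p = 0.0521), but 7 alternatives called it lower (adjusted p 0.0209 to 0.0446). SLC33A1, which brings acetyl-CoA into the endoplasmic reticulum, was higher in sponge plus Salmonella libraries (6.66 to 7.13) than in control (4.67 to 5.92, a difference of 1.36 ± 0.32, adjusted p = 0.00408), and the nucleotide sugar carrier gene SLC35A3 was not called in any comparison.

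Among 6 carriers of vitamins, choline and cofactors, SLC46A2 fell with Salmonella and 5 were not called, against 17.9% lower and 15.7% higher over all genes. SLC46A2, a relative of the folate carrier that is known from thymic stroma, had values of 8.04, 8.67, 8.32 and 8.01 in control, 7.22, 7.05, 6.97 and 6.80 in Salmonella, and 6.90, 6.61, 6.30 and 7.08 in sponge plus Salmonella libraries. Every control library lay above every treated one (-1.25 ± 0.21, adjusted p = 0.000460, with Salmonella, and -1.53 ± 0.21, adjusted p = 0.000139, with sponge plus Salmonella). SLC23A2, a vitamin C carrier gene, was not called in any comparison, although 2 alternatives called it higher with the sponge than with Salmonella alone (adjusted p 0.0406 to 0.0472). SLC44A4, a carrier known from epithelia for thiamine pyrophosphate and choline, was at 11.93, 12.52, 12.63 and 12.19 in control, 12.96, 12.63, 12.45 and 12.06 in Salmonella, and 13.21, 13.01, 13.38 and 13.17 in sponge plus Salmonella libraries. SLC16A12, a creatine carrier gene known from eye and kidney, was at 11.77, 12.49, 12.48 and 12.31 in control, 12.85, 12.75, 12.22 and 12.29 in Salmonella, and 12.93, 12.98, 13.12 and 13.10 in sponge plus Salmonella libraries. The values of SLC44A4 and SLC16A12 stayed within 0.28 of each other in all 12 libraries, and only 1 gene lay that near to SLC44A4. Why these rows run so close was not tested, so they are not to be counted as separate evidence. All sponge plus Salmonella libraries lay above all others for both genes, by 0.87 ± 0.20 (adjusted p = 0.00302) and 0.77 ± 0.19 (adjusted p = 0.00479) against control. Against Salmonella alone SLC44A4 was called (0.67 ± 0.20, adjusted p = 0.0231), which ended without sponge plus Salmonella replicate 3 or without Salmonella replicates 3 or 4 (adjusted p 0.0555 to 0.0741). SLC16A12 missed the threshold there (adjusted p = 0.0591), and 3 alternatives called it (adjusted p 0.0196 to 0.0426).

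**Figure D5:**
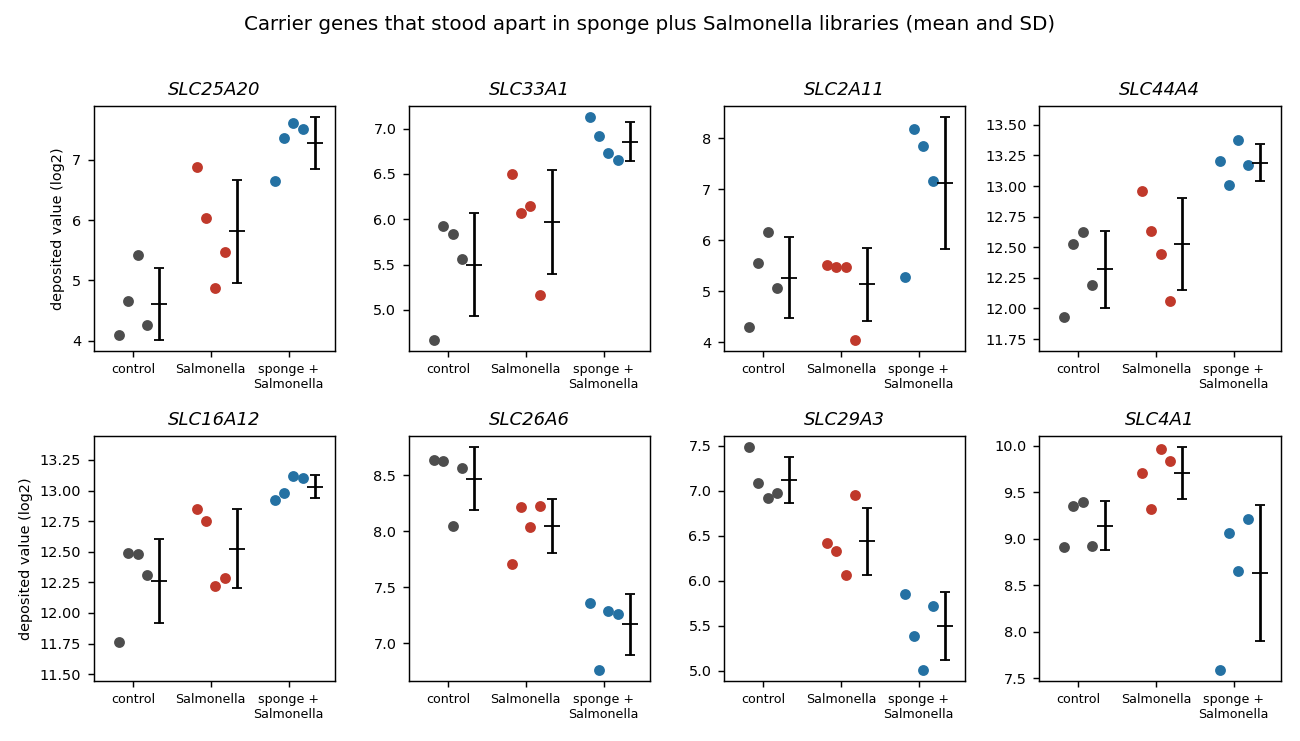
Deposited log2 values (vertical axis, a separate range for each gene) of 8 carrier genes, 1 point per library, with mean and SD (n = 4) in black. Each was called for sponge plus Salmonella libraries against at least 1 other group, although in SLC2A11 the sponge plus Salmonella values overlapped those of both other groups. SLC25A20 runs from 6.64 to 7.60 with the sponge and from 4.09 to 5.42 in control, and SLC26A6 and SLC29A3 are lowest with the sponge.

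Transporters outside the SLC series moved in both directions. Of 15 measured genes among 30 listed from the ATP-binding cassette (ABC) family, most of which encode transporters that use ATP to move lipids, drugs and other molecules, 4 rose, 4 fell and 7 were not called with Salmonella. Over all genes 15.7% rose and 17.9% fell, and the counts of each list here are to be read beside these shares. The cholesterol exporter gene ABCA1 rose by 1.55 ± 0.25 (adjusted p = 0.000290), and ABCC5 (-1.97 ± 0.30, adjusted p = 0.000185) fell. With the sponge ABCA1 was lower than with Salmonella alone (-1.55 ± 0.25, adjusted p = 0.000791). Of 13 measured ion pump genes among 27 listed, 4 rose and 1 fell, among them the vacuolar proton pump subunit genes ATP6V1B2 (0.85 ± 0.19, adjusted p = 0.00308), ATP6V0C (0.72 ± 0.20, adjusted p = 0.0122) and ATP6V1G1 (0.66 ± 0.16, adjusted p = 0.00501), which rose. The 1 that fell, ATP6AP1 (-0.53 ± 0.18, adjusted p = 0.0361), also belongs to the vacuolar proton pump. Its subunit genes ATP6V0E1, ATP6V1A, ATP6V1E1, ATP6V1F and ATP6V1H were not called with Salmonella, so the pump genes did not move as 1 set. Of 4 measured organic anion carriers of the related SLCO family among 9 listed, SLCO4C1 fell (-1.20 ± 0.25, adjusted p = 0.00180) and 3 were not called.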

How the data were processed

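The submitters sequenced RNA of 12 pig PBMC libraries, extracted with a PAXgene kit and prepared with a TruSeq kit per the labels' protocols. Bowtie, R 3.4.2 and the build Sscrofa11.1 are named per the submitters' processing notes. How reads were counted, normalized and filtered is not given in the sources used here. Log2 expression values of 7480 genes, as made by the authors, fill the deposited table. The log base is not stated and was taken as 2, and depth is unknown.

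Groups came from the labels. All 12 libraries entered a single limma fit (version 3.58.1, R 4.3.3) of group means with a variance trend. It was tried on simulated normal values without ties, which cannot show how it behaves with the tied values of sponge plus Salmonella libraries. Adjusted p-values are Benjamini-Hochberg over 7480 genes, with calls below 0.05. Errors after ± beside fitted differences are SE, with n = 4 per group. Gene positions and names came from the RefSeq table of Sscrofa11.1, which held 163 of the 164 members.

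The named genes, with a mean of 6 or more in at least 1 group, are the 12 largest called changes in each direction of each comparison, leukocyte carriers and the highest levels, 54 in all, of which 1 is not reported here. The other 8 of the 62 (SLC2A11, SLC6A8, SLC45A4, SLC25A11, SLC25A40, SLC22A15, SLC22A23 and SLC23A2) were named after their values were seen, as were SLC45A2 and SLC16A14, while SLC26A2 and SLC16A10 mark the limit. Members, lists and tests were chosen with earlier results of these data known. Alternatives were median centring, quantile normalization, a filter on the mean, no variance trend, only the compared groups, a replicate block and leaving out each library.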

Additional observations from a re-analysis of the deposited data

Results flagged for a closer look

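In 10 of 183 groups of 4 values tested among 61 carriers with a mean of 6 or more (5.46%, where chance gives about 1 in 20), 1 library stood far from the other 3 by Dixon's criterion at the 95% level. Control replicate 3 was concerned in 4 of them. It stood low for the vitamin C carrier gene SLC23A2 (5.57, others 6.21 to 6.29), the anion exchanger gene SLC26A6 (8.05, others 8.56 to 8.64) and the fatty acid transport gene SLC27A3 (9.34, others 9.80 to 9.89), and high for the GABA carrier gene SLC6A13 (5.80, others 4.97 to 5.05). Control replicate 1 stood high for the fructose carrier gene SLC2A5 (7.33, others 6.46 to 6.58).

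Sponge plus Salmonella replicate 1 was concerned in 2. It stood high for the ADP/ATP carrier gene SLC25A5 (12.75, others 12.38 to 12.41) and for SLC27A3 (10.37, others 9.42 to 9.54). Sponge plus Salmonella replicate 2 stood low for SLC26A6 (6.77, others 7.26 to 7.36). Salmonella replicate 4 stood high for SLC25A4 (6.18, others 5.29 to 5.43) and low for the sugar carrier gene SLC2A11 (4.06, others 5.49 to 5.52).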

How the results depend on the processing

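Over the 62 carriers with a mean of 6 or more, 92 differences were called, of which 66 stayed called under all 14 alternatives of their comparison and 26 lost the call under at least 1. None of the 92 changed direction. Of 94 differences that were not called, 28 changed sign and 21 were called under at least 1 alternative. For sponge plus Salmonella against control, testing only genes with a mean of at least 6 gave 14 higher and 17 lower carriers, with 62 carriers in the fit, and median centring gave 44 lower; the cause of the latter was not tested. Leaving out 1 library at a time gave 21 to 28 higher and 16 to 20 lower carriers for Salmonella against control. It gave 9 to 18 higher and 14 to 24 lower for sponge plus Salmonella against Salmonella, and 15 to 24 higher and 19 to 25 lower for sponge plus Salmonella against control. With the replicate number as a block, the counts of higher and lower carriers were 28 and 19, 13 and 21, and 20 and 24 in the same order of comparisons. Libraries of the same number correlated at -0.36 to 0.38 in their deviations from the group means, and 4 of 24 matched best with their own number, so the numbers were not taken to pair the libraries. The depth behind the values is unknown, and levels under 4.99 lie among those of the silent set. Every p rests on 4 libraries per group, and the animals behind them are not given.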
